A study of Arabidopsis thaliana with 42 samples.

Results

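The genes with a mid-life hump are 150 Arabidopsis thaliana genes whose RNA was low in the youngest and the oldest leaves and high between them. They were chosen by measured values: for each gene, log2(FPKM + 1) was averaged over both sets on each day, and a score was taken as the mean of days 10 to 18 minus the larger of the mean of days 4 and 6 and the mean of days 26 to 30. The 150 highest scores were kept, out of 13672 genes that reached a mean of at least 5 FPKM on some day, which in turn came from 33604 genes in all. FPKM, a fragment count scaled by transcript length and library size, is a relative level within a library, and how far comparisons between libraries depend on scaling is given beside the tests. All leaves were wild type. Total RNA was sequenced at 14 leaf ages, given as days after emergence, every 2 days from day 4 to day 30, in 2 sets that the submitters call biological replicates, which makes 28 libraries. In what follows, the 4 libraries of days 4 and 6 are called young, the 10 of days 10 to 18 mid-life and the 6 of days 26 to 30 old. The labels state neither accession and growth conditions nor the leaf's position on the plant, and what was kept separate between the sets is not stated, so the p-values speak for the variation among these libraries alone, some of which may be technical.

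An Arabidopsis leaf first grows by cell division and then by cell expansion, next works for some time as a mature source organ, and finally senesces, when its proteins and minerals are taken apart and exported. Most of the genes that are followed in leaf ageing run one way along this path: growth and photosynthesis genes go down and senescence genes go up. A gene with a hump does neither. Mature source leaves load sugars and amino acids for export, hold starch by day, use iron in the chloroplast and build defence compounds such as glucosinolates, which are sulfur-rich glucosides of the mustard family.

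Because the score used 20 of the 28 libraries, everything about the hump itself in those libraries is a description and carries no test. The 8 libraries of days 8, 20, 22 and 24 did not enter the score, although they counted toward the filter of 5 FPKM on some day. Tests were therefore limited to 2 comparisons among them, day 20 against day 8 and day 24 against day 20.

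One library stood apart. The set 1 library of day 4 summed to 331479 FPKM, against 439949 to 484348 FPKM in the others, and it had 13359 genes at 1 FPKM or more, against 14889 to 16128. On day 4, 140 of the 150 members were lower in set 1 than in set 2, but so were 90.3% of the 13672 genes. On day 6, 114 of the 150 were lower in set 1. The share of all genes was not computed for day 6, so this count cannot be read as a trait of the members. Without the set 1 library of day 4, every member still had a score above 0, with a median of 1.18 and a lowest of 0.553. Without both day 4 libraries the median was 1.04 and the lowest 0.285. The tissue label was checked against 11 leaf identity genes, Rubisco small subunits and antenna proteins among them, none of which is a member: their summed FPKM was 16256 to 22409 in young, 11968 to 20354 in mid-life and 560 to 6906 in old libraries. Of 7 root genes 2 reached 1 FPKM in 2 libraries, and the summed root FPKM was 5.91 to 12.8 in young, 12.0 to 17.44 in mid-life and 4.26 to 12.2 in old libraries. Summed FPKM of 12 vascular genes was 162 to 354 in young, 360 to 452 in mid-life and 232 to 283 in old libraries. Of the 9 vascular genes at 5 FPKM or more, however, 3 had a score above 0 and 0 were members. For 12 guard cell and epidermis genes the sum was 25.8 to 38.1 in young, 9.62 to 20.6 in mid-life and 13.8 to 48.5 in old libraries. The part of these cell types in the hump was not tested. Since the samples are bulk tissue, fewer cells of a type and less RNA per cell cannot be told apart.

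The members' scores ran between 1.14 and 2.87 with a median of 1.38 log2 units, against a median of -0.59 over the 13672 genes, of which 2754 (20.1%) had a score above 0. In 90 members the young days were the higher flank and set the score, and in 60 the old days did. The fold, taken as 2 to the power of the difference in mean log2(FPKM + 1), had a median of 2.85 for mid-life over young leaves and of 3.12 for mid-life over old leaves. In 87 members all 10 mid-life libraries lay above all 10 young and old libraries. Here and wherever such a separation is given below, the same libraries chose the members, which favours it. Its share among the 13672 genes was not computed, so it describes the members only. Just inside the limit were AT2G29670 (1.15), the amino acid permease gene AAP2 (1.14) and ACL (1.14), and just outside were AT1G51440, scpl46 and MSRB5 (1.13 each), so the limit cuts through a continuous series of scores.

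**Figure D1:**
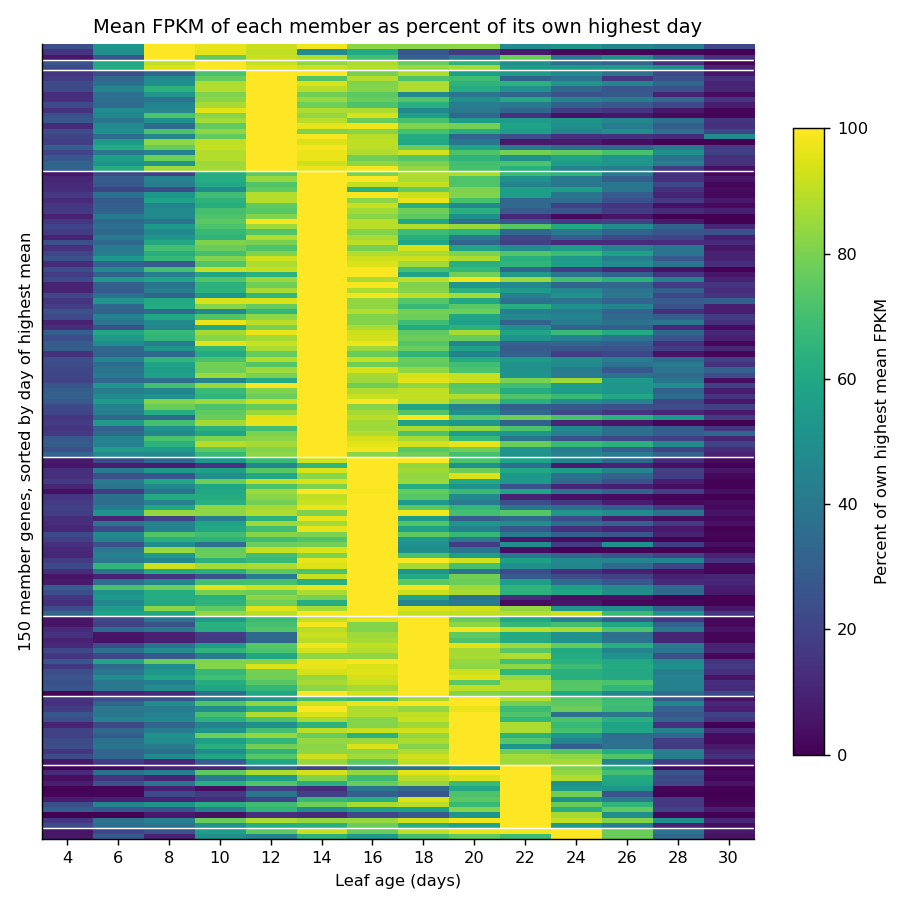
Mean FPKM of each of the 150 members (rows, sorted by the day of the highest mean, with white lines between days) on each of the 14 leaf ages (columns), as a percent of the gene's own highest day. The bright diagonal shows that 120 of the 150 had their highest mean inside days 10 to 18 and that the last rows, 27 genes, reached it on days 20 to 24.

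The members' peaks were staggered, as the map of members by day shows. Taken on log2(FPKM + 1), the highest mean fell on day 8 in 3 members, day 10 in 2, day 12 in 19, day 14 in 54, day 16 in 30, day 18 in 15, day 20 in 13, day 22 in 12 and day 24 in 2. The percents that follow use mean FPKM, by which the highest day can differ. GSTF11, for example, counted on day 12, had its highest mean FPKM on day 14. The median member stood at 17.42% of its own highest mean on day 4, 48.2% on day 8, 80.8% on day 12, 95.6% on day 14, 82.6% on day 18, 71.8% on day 20, 46.4% on day 24 and 7.20% on day 30. The median of the 13672 genes followed another course, with 33.9% on day 4, 54.0% on day 14 and 71.3% on day 30. A member spent a median of 7 of the 14 ages at or above 50% of its highest mean, with a range of 3 to 12, against a median of 9 for the 13672 genes. The highest means themselves spread between 5.20 and 1168 FPKM, with a median of 35.1 FPKM in the members and 21.0 FPKM in the 13672 genes. Together the members made up 0.349% and 0.736% of all FPKM on day 4 (set 1, then set 2), 2.47% and 2.54% on day 14, and 0.228% and 0.292% on day 30.

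**Figure D2:**
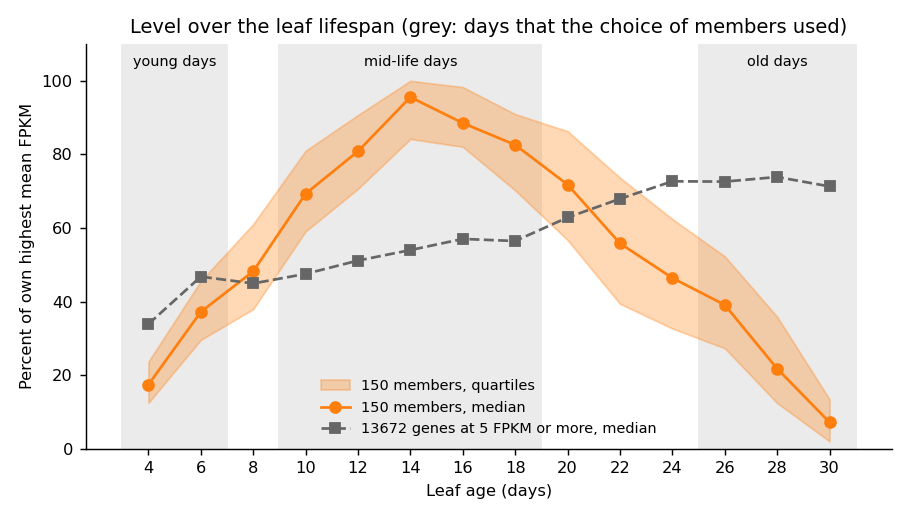
Percent of a gene's own highest mean FPKM by leaf age in days, as the median (circles) and quartiles (band) of the 150 members and the median of the 13672 genes at 5 FPKM or more (squares). Grey bands mark the days that chose the members; the members' median reached 95.6% on day 14 and was 7.20% on day 30, when that of all these genes was 71.3%.

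The members were chosen on the mean of both sets, which favours a hump in each set. The counts on members that follow are therefore a description. Scores computed within a set were above 0 in 150 members in set 1 and in 149 in set 2; the exception was AT3G16530, at -0.001 in set 2. The highest single library lay inside days 10 to 18 in 124 members in set 1 and 127 in set 2. It fell on the same day in both sets in 46 members and within 2 days in 102. When the 150 genes were chosen by set 1 alone, 144 of them had a score above 0 in set 2, with a median of 0.95, whereas 15.1% of all 13672 genes did; when chosen by set 2 alone, 145 had one in set 1, with a median of 1.49, whereas 24.0% of all did. The lowest score in the other set was -0.946 for the choice by set 1 and -4.56 for the choice by set 2. Each choice applied the filter of 5 FPKM within its own set, whereas the 13672 genes passed it on the mean of both. The 2 choices had 82 genes in common.

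All but 2 members are listed in the RefSeq annotation (assembly TAIR10.1), 144 as protein-coding, 3 as pseudogenes of either kind and 1 as a noncoding RNA, and 84 of the 150 have a name other than their locus number. AT5G15948 and ATCG00550 are not listed there and are given by identifier only. By its prefix ATCG00550 is a chloroplast gene, and the rescaling of nuclear genes given below did not count it as nuclear. Members lay on all 5 chromosomes, 41 on chromosome 1, 27 on 2, 26 on 3, 20 on 4 and 34 on 5, by that annotation, which does not place the other 2. In 12 places members were neighbours with at most 2 protein-coding loci between them, 29 members in all. The largest such place was a row of 6 SAUR genes on chromosome 5, SAUR19 to SAUR24; others were FRO6 next to FRO7, PDF1.3 next to PDF1.2b, PDF1.2 next to PDF1.2c, CYSD2 next to DES1, and 2 genes that both carry the name AT14A with AT3G28270 beside them. SAUR19 to SAUR24, the defensins and the AT14A pair are close copies, so the counting could have split reads among them, and single values within each of these groups are uncertain.

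AT2G15020, which the annotation leaves unnamed, had the highest score, 2.87. It had 1.62, 10.9, 20.5 and 23.9 FPKM in the young libraries, between 55.8 and 124 FPKM (median 82.7) in mid-life and between 0.994 and 37.3 FPKM (median 16.2) in old ones. AT1G24147 scored 2.63 and RL6, which encodes a small RADIALIS-like MYB protein, 2.43. In each of these 3 genes the lowest mid-life library lay above the highest young and the highest old library. Also among the 10 highest were MLP43, AT5G42530 and AT1G19960, the last 2 with wide young ranges of 8.80 to 384 and 0.197 to 28.4 FPKM.

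Iron handling genes stood high among the members: AT2G30766, FRO7 and FRO6 were 3 of the 12 highest scores, and NAS4 is a member too. FRO6 and FRO7 are adjacent genes for ferric chelate reductases, which turn ferric into ferrous iron; FRO7 works at the chloroplast. FRO7 (score 2.32) had 12.4, 31.5, 55.4 and 63.8 FPKM in young libraries, 111 to 211 FPKM (median 188) in mid-life and 11.7 to 81.7 FPKM (median 28.9) in old ones. FRO6 (1.97) ran higher and in parallel, with 28.4 to 157 FPKM in young, 234 to 381 FPKM in mid-life and 4.07 to 138 FPKM in old libraries. Neither gene's mid-life range overlapped its young or old range. AT2G30766 (2.42), which the metal list holds and the annotation leaves unnamed, had 1.00 to 2.38 FPKM in young, 3.87 to 28.5 FPKM in mid-life and 0 to 4.55 FPKM in old libraries, so its mid-life and old ranges overlapped in 1 library. NAS4 (1.39), which makes the metal chelator nicotianamine, was the lowest of the 4, with a highest mean of 9.84 FPKM on day 12. In the whole metal list, these 4 members included, 7 of 22 genes at 5 FPKM or more scored above 0, against 20.1% of the 13672 genes. Among those below 0, NAS3 had its highest mean of 447 FPKM on day 30 and a score of -3.29, and the ferritin gene FER1 scored -1.11.

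Glucosinolate synthesis was the list with the largest share of genes above 0 among those with at least 10 measured genes: 27 of its 31 genes at 5 FPKM or more, 6 of them members, against 20.1% of the 13672 genes. MAM1, IPMI2 and IMD1 lengthen the methionine side chain, CYP83A1 and GSTF11 belong to the building of the core structure, and FMO GS-OX1 oxidises the finished side chain. MAM1 (score 1.22) had 18.6, 53.0, 58.2 and 90.5 FPKM in young libraries, 161 to 247 FPKM (median 210) in mid-life and 39.2 to 169 FPKM (median 116) in old ones. IMD1 (1.52) had 21.9, 34.1, 32.7 and 55.7 FPKM in young libraries, 76.9 to 136 FPKM (median 102) in mid-life and 9.59 to 35.2 FPKM (median 27.6) in old ones. IMD1's ranges stood apart, whereas MAM1's highest old library passed its lowest mid-life one. In 5 of the 6 members, MAM1 being the exception, all mid-life libraries lay above all young and old ones. The median of the 6 was 36.3% of the highest mean on day 8, 98.3% on day 14, 59.9% on day 20 and 51.1% on day 24. In the list as a whole, 13 of 33 tested genes were higher and 1 lower on day 20 than on day 8, where 39.6% of all genes tested were higher and 12.8% lower, so the share that rose was at the background. On day 24 against day 20, 1 was higher and 0 lower, where 8.15% of all genes tested were higher and 3.35% lower.

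Sulfur assimilation feeds that pathway. APR2, an adenosine phosphosulfate reductase and the member from the sulfur list, had 20.5, 41.1, 52.7 and 77.6 FPKM in young libraries, 85.0 to 133 FPKM in mid-life and 27.9 to 68.6 FPKM in old ones. AKN2, an APS kinase, CBL, the cystathionine beta-lyase of methionine synthesis, and the cysteine desulfhydrase gene DES1 are members too and were picked out after their values were seen; in each the mid-life libraries lay above all young and old ones. In the sulfur list 3 of 12 genes at 5 FPKM or more scored above 0, near the 20.1% of the 13672 genes.

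SAUR genes encode small auxin-responsive proteins, and those of the SAUR19 group promote cell expansion. There were 10 SAUR members, and 19 of the 32 SAUR genes at 5 FPKM or more scored above 0. SAUR24 (score 1.75) had 2.01, 2.68, 7.95 and 11.8 FPKM in young libraries, 13.5 to 25.8 FPKM (median 21.4) in mid-life and 0 to 1.39 FPKM (median 0) in old ones. SAUR20 had 0.866, 10.5, 14.2 and 11.9 FPKM in young libraries, 9.38 to 32.4 FPKM (median 20.7) in mid-life and 0 to 0.730 FPKM in old ones. SAUR24 thus separated mid-life from both flanks, while SAUR20 overlapped with the young leaves; 3 of the 10 SAUR members separated fully. Their median was 61.4% of the highest mean on day 8, 100% on day 16, 40.3% on day 20, 10.5% on day 22 and 5.08% on day 24.

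EXPA1, an expansin that loosens the cell wall, had 39.0, 136, 166 and 160 FPKM in young libraries, 117 to 369 FPKM (median 315) in mid-life and 3.67 to 34.8 FPKM (median 8.42) in old ones. XTH31, a xyloglucan-modifying enzyme of the wall, had its highest mean on day 8, before the days that define the hump: it had 66.2 and 61.8 FPKM on day 8, 12.0 and 9.86 FPKM on day 20 and 1.85 and 0.828 FPKM on day 24 (set 1, then set 2). The tonoplast aquaporin gene TIP2;2 also peaked on day 8 in its mean, and was between 208 and 271 FPKM in mid-life, against 42.6 to 159 FPKM in young and 51.6 to 131 FPKM in old libraries. The cell wall list held no other member, and 4 of its 15 genes at 5 FPKM or more scored above 0, against 20.1% of the 13672 genes. Of its 17 tested genes, EXPA1 included, 16 fell on day 20 against day 8, where 12.8% of all genes tested fell. On day 24 against day 20, 7 fell, where 3.35% of all genes tested did.

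The 4 defensin members, PDF1.2, PDF1.2b, PDF1.2c and PDF1.3, encode small antifungal proteins of jasmonate and ethylene responses. Their median was 30.7% of the highest mean on day 18, 57.5% on day 20, 100% on day 22, 79.4% on day 24, 51.1% on day 26 and 1.85% on day 28. PDF1.2 had 0, 3.85, 5.08 and 3.80 FPKM in young libraries, 9.94 to 122 FPKM (median 46.8) in mid-life and 0.270 to 146 FPKM (median 6.94) in old ones. On day 20 it had 215 FPKM in set 1 and 21.9 FPKM in set 2, and on day 24 it had 268 and 74.96 FPKM. None of the 4 separated mid-life from both flanks, and set 1 exceeded set 2 in 34 of 56 pairs of libraries of the same day. The other members from the jasmonate list were LOX2 and JMT. LOX2, the chloroplast lipoxygenase at the start of jasmonate synthesis, had 68.5, 128, 125 and 183 FPKM in young libraries, 221 to 476 FPKM (median 316) in mid-life and 44.6 to 308 FPKM (median 174) in old ones. JMT, which methylates jasmonate, peaked at 6.86 FPKM on day 12, stood at 12.4% of that mean on day 28 and was back at 47.5% on day 30. Of the 18 jasmonate genes at 5 FPKM or more, 8 scored above 0.

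ACD6, an ankyrin membrane protein that promotes salicylic acid signalling, had 1.16, 10.6, 4.64 and 40.2 FPKM in young libraries, 34.2 to 159 FPKM (median 102) in mid-life and 2.14 to 100.2 FPKM (median 34.2) in old ones. PCC1, a pathogen and circadian controlled gene, had its highest mean of 212 FPKM on day 24, and 67.3 to 198 FPKM in mid-life against 8.64 to 105 FPKM in young and 9.63 to 185 FPKM in old libraries. ECS1 had the highest level of any member, a mean of 1168 FPKM on day 18. In all of these, mid-life overlapped with the young or the old libraries, and their young values were higher in set 2 than in set 1 on both days. The salicylic acid list held no member, and 0 of its 21 genes at 5 FPKM or more scored above 0.

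Source leaf functions were present as single genes. CT-BMY, a chloroplast beta-amylase that breaks down starch at night, had 25.3, 45.3, 45.7 and 53.5 FPKM in young libraries, 77.9 to 119 FPKM (median 101) in mid-life and 6.79 to 63.0 FPKM (median 36.3) in old ones. GBSS1, the granule-bound starch synthase, had its highest mean of 41.0 FPKM on day 18. Of the 28 starch genes at 5 FPKM or more 21 scored above 0, although only these 2 reached the first 150. RVE1, a clock-controlled MYB factor, was the member from the morning clock list, 9 of whose 12 genes scored above 0; the labels do not state the hour of harvest. BBX30, a microprotein of the B-box family, was the member from the light list, in which 9 of 16 genes scored above 0.

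The following members, apart from AAP2, were picked out after their values were seen. GPRI1 and GLK2, the pair of GOLDEN2-like factors that drive chloroplast genes, were both members. GPRI1 had 124 to 246 FPKM in mid-life, against 40.8 to 99.5 FPKM in young and 24.3 to 160 FPKM in old libraries; GLK2 had 102 to 144 FPKM in mid-life, against 15.2 to 78.2 FPKM in young and 16.9 to 80.6 FPKM in old libraries. NCED4, a carotenoid cleavage dioxygenase, was among the more abundant, with 413 to 803 FPKM in mid-life against 37.6 to 230 FPKM in young and 39.2 to 525 FPKM in old libraries. AAP2, an amino acid permease of the phloem, had 82.8 to 277 FPKM in mid-life against 1.403 to 35.5 FPKM in young and 45.3 to 127 FPKM in old libraries. KCS6, an elongase of cuticular wax synthesis, P5CS1 of proline synthesis and IPT3 of cytokinin synthesis each had all mid-life libraries above all young and old ones.

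**Figure D3:**
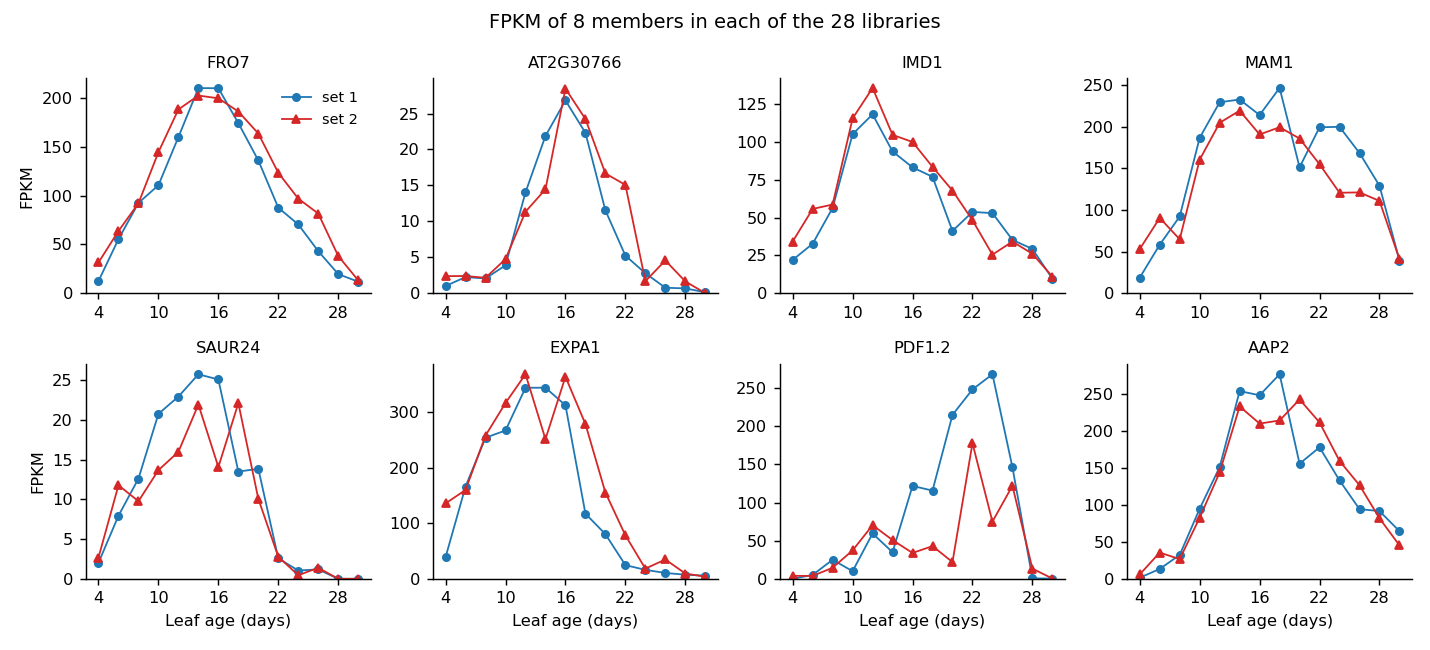
FPKM (linear axes from 0, one scale per panel) by leaf age in days for 8 members, with set 1 as circles and set 2 as triangles, each point 1 library. SAUR24 was at 1.04 and 0.449 FPKM on day 24, while PDF1.2 reached 248 FPKM in set 1 and 178 FPKM in set 2 on day 22.

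**Figure D4:**
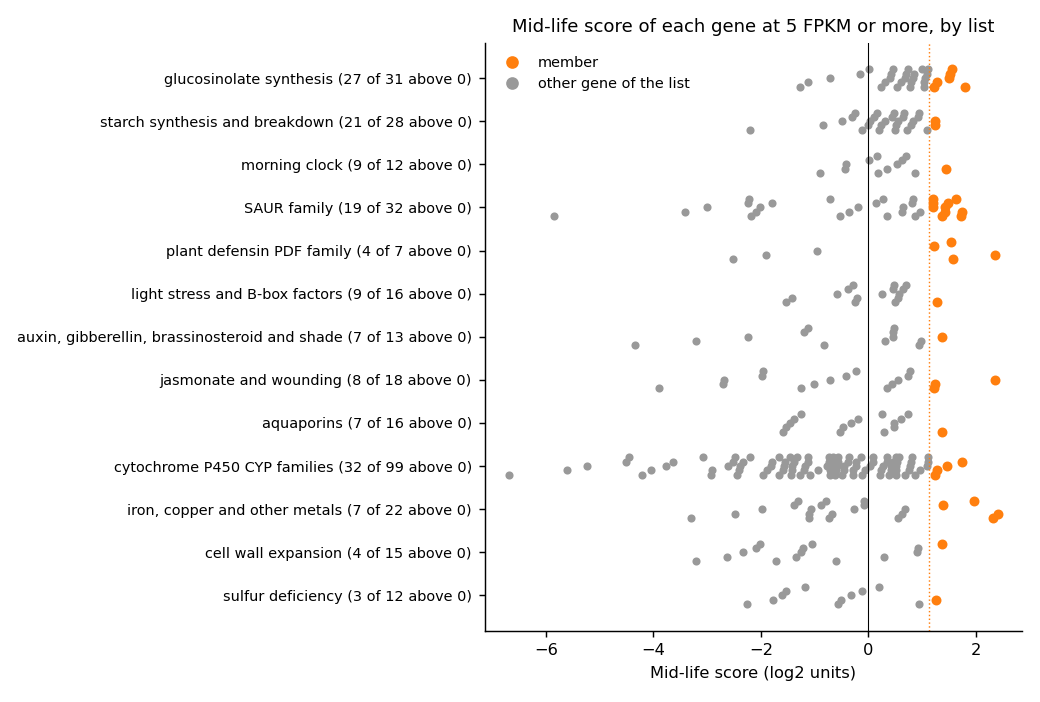
Mid-life score in log2 units of each gene at 5 FPKM or more in the 13 lists and families that hold a member, 1 point per gene, members in orange, with a line at 0 and a dotted line at the lowest member's score. Most glucosinolate (27 of 31) and starch genes (21 of 28) lie right of 0, while 7 of 22 metal genes do; points are spread vertically only to keep them apart.

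Several lists held no member. None of the 15 senescence, 20 abscisic acid, 16 ethylene and 16 phosphate starvation genes at 5 FPKM or more scored above 0, and 3 of 25 cold and dehydration genes did. Of 99 cytochrome P450 genes 32 scored above 0 and 4 were members, CYP706A6, CYP81F3, CYP71B36 and CYP83A1. CYP706A6 had 106 to 147 FPKM in mid-life against 15.2 to 59.1 FPKM in young and 0.395 to 42.7 FPKM in old libraries. Because lists and members were both known from earlier results, these counts describe the hump and are not a test of it.

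The first comparison asked whether a member was still above its early level after the days that define the hump. The difference itself comes from the 4 libraries of days 20 and 8. Its standard error and p-value come from limma on log2(FPKM + 1) fitted to all 28 libraries, the 20 of the score included, with Benjamini-Hochberg adjustment over 18239 genes. Both days lie next to days of the rule, so a smooth course alone ties them to the score. Of the 150 members 44 rose (29.3%) and 7 fell (4.67%), where 39.6% of all genes tested rose and 12.8% fell, and among the 13672 genes 45.4% rose and 11.9% fell. In 83 members both day 20 libraries lay above both day 8 libraries and in 21 below, against 58.8% and 21.3% of all genes tested and 64.0% and 19.9% of the 13672 genes. In this fit the members' share called higher was below the background, and counts from other fits are given below. Their median difference of 0.42 log2 units was 0.04 above that of all genes tested, 0.38. It was below that of the 13672 genes, 0.48. The direction of the background depends on scaling: 75.6% of all calls were higher as deposited, 50.2% after quantile normalization and 73.6% with nuclear genes rescaled. With quantile normalization the median of all genes shifted to 0.03, and the members' median lay 0.10 above it.

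The share of members called differed with the day of the highest value. Of the 33 members whose highest day among 10 to 18 was day 18, 23 rose, while 7 of 34 with day 16, 13 of 57 with day 14, 1 of 23 with day 12 and 0 of 3 with day 10 did; this ordering uses days of the rule and is given without a test. ACD6 had 118 and 165 FPKM on day 20, against 17.1 and 13.8 FPKM on day 8, a difference of 3.10 ± 0.61 (SE; limma adjusted p = 0.00047). PCC1 had 107 and 214 FPKM on day 20, against 18.6 and 19.6 FPKM on day 8, a difference of 2.92 ± 0.49 (limma adjusted p = 0.00011). AAP2 had 156 and 243 FPKM on day 20, against 32.3 and 26.6 FPKM on day 8, a difference of 2.69 ± 0.39 (limma adjusted p = 2.7e-05). In these 3 genes both day 20 libraries lay far above both day 8 libraries. AT2G16367 rose by 2.58 ± 0.47 and AT2G30766 by 2.27 ± 0.41 (limma adjusted p = 0.00023 and 0.00022).

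Among the glucosinolate members MAM1, CYP83A1 and FMO GS-OX1 rose, by 1.11 ± 0.35, 0.76 ± 0.23 and 1.07 ± 0.32, each losing the call when either set 2 library was left out. XTH31 fell by 2.45 ± 0.41 (limma adjusted p = 9.9e-05). EXPA1 had 80.4 and 155 FPKM on day 20, against 254 and 258 FPKM on day 8, and its call (-1.19 ± 0.48, limma adjusted p = 0.047) was lost when any of the 4 libraries was left out. SAUR22, SAUR23, AT5G62360 and ATCG00550 also fell. Of the 44 members that rose 20 kept the call whichever of the 4 libraries was left out, and of the 7 that fell XTH31 did. The count that rose was 20 if day 8 of set 2 was dropped and 29 if day 20 of set 1 was. The count that fell was 2 if day 20 or day 8 of set 1 was dropped and 3 if day 20 of set 2 was. With both day 4 libraries out of the fit 66 members rose and 10 fell, against 8902 and 2887 of all 18239 genes tested. In a fit of the 8 libraries outside the rule 69 members rose and 11 fell, against 9019 and 3048 of all genes tested. After quantile normalization 33 members rose and 19 fell, against 4327 and 4291 of all genes tested.

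The second comparison, day 24 against day 20, asked how far the members had come down before the old days of the rule. It shares the day 20 libraries with the first one and was fitted in the same way. Members were chosen as high on days 10 to 18 and low on days 26 to 30, so a fall between these days is largely built into the choice, and the counts beside the background describe when it happened rather than test the hump. Of the 150 members 29 fell (19.3%) and 0 rose, where 3.35% of all genes tested fell and 8.15% rose, and among the 13672 genes 4.07% fell and 9.07% rose. At an unadjusted p under 0.05 limma gave 62 lower and 0 higher members. In 103 members both day 24 libraries lay below both day 20 libraries and in 0 above, against 18.4% and 43.5% of all genes tested and 18.8% and 47.6% of the 13672 genes. The members' median difference was -0.53 log2 units, with -0.45 in set 1 and -0.72 in set 2. That of all genes tested was 0.16 and that of the 13672 genes 0.20. Relative to all genes the members' median was -0.69 as deposited, -0.74 after quantile normalization and -0.69 with nuclear genes rescaled, although the share of all calls that were higher changed between 70.9%, 42.7% and 64.9% in these.

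**Figure D5:**
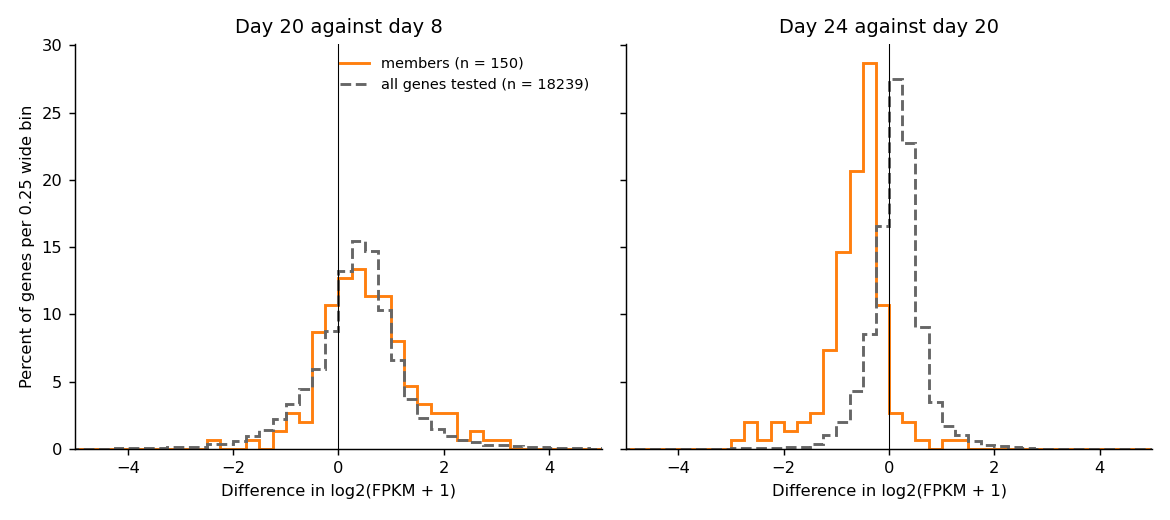
Distribution of the log2(FPKM + 1) difference for the 150 members and for all 18239 genes tested, day 20 minus day 8 and day 24 minus day 20. In the first the members' median was 0.42, against 0.38 for all genes tested and 0.48 for the 13672 genes at 5 FPKM or more. In the second it was -0.53, against 0.16 and 0.20.

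Of the 10 SAUR members 9 fell, where 16 of the 50 SAUR genes tested fell and 4 rose. SAUR24 had 1.04 and 0.449 FPKM on day 24, against 13.9 and 10.1 FPKM on day 20, a difference of -2.90 ± 0.28 (SE; limma adjusted p = 3.9e-06). SAUR20 had 0.825 and 1.15 FPKM on day 24, against 11.1 and 12.7 FPKM on day 20, a difference of -2.70 ± 0.52 (limma adjusted p = 0.0025). AT4G38860, also known as SAUR16, had 34.5 and 57.2 FPKM on day 24, against 84.5 and 117 FPKM on day 20, and did not pass. EXPA1 had 16.1 and 18.3 FPKM on day 24, against 80.4 and 155 FPKM on day 20, a difference of -2.64 ± 0.48 (limma adjusted p = 0.0015), and XTH31 fell by 2.38 ± 0.41 (limma adjusted p = 0.00088). These calls on SAUR24, SAUR20, EXPA1 and XTH31 held whichever of the 4 libraries was left out.

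Other members that fell had varied roles. AT2G30766 had 2.77 and 1.66 FPKM on day 24, against 11.5 and 16.7 FPKM on day 20, a difference of -2.23 ± 0.41 (limma adjusted p = 0.0016), a call lost if day 24 of set 2 was dropped. It was the 1 gene of the metal list that fell, while 3 of its 27 tested genes rose. RGF9, a peptide of the root growth factor family, and TRY, a MYB inhibitor of leaf hair formation, were picked out after their values were seen: they fell by 1.87 ± 0.36 and 1.64 ± 0.25. The glucosinolate, defensin, jasmonate and starch members had 0 calls in this comparison, with differences between -0.51 and -0.11 in the 6 glucosinolate members and between 0.44 and 1.29 in the 4 defensins. Of the 34 members with their highest value of days 10 to 18 on day 16, 13 fell, while 1 of 3 with day 10, 2 of 23 with day 12, 12 of 57 with day 14 and 1 of 33 with day 18 did, a split that again uses days of the rule and has no test. Of the 29 members that fell 12 kept the call whichever library was left out. The count was 13 if day 24 of set 2 was dropped, 18 if day 20 of set 1 was and 19 if day 20 of set 2 was. It was 67 with both day 4 libraries out of the fit, 80 in a fit of the 8 libraries outside the rule, 70 after quantile normalization and 51 with nuclear genes rescaled.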

How the data were processed

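Total RNA of wild-type leaves was read in 28 libraries, 14 ages in 2 sets, from 2 deposited tables of FPKM values per gene model. Per the submitters' processing notes, the authors' tools were TopHat 1.4.0 and Cufflinks with the TAIR10 genome; their settings are not given in the sources used here. FPKM keeps no read counts, so depth is unknown and no counting intervals are given. The 14 columns of small RNA values were not used.

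Models were summed per gene and values taken as log2(FPKM + 1). The members and gene lists were chosen with earlier results of these data known. Genes that reached 1 FPKM in 2 or more libraries were tested with limma 3.58.1 (trend, R 4.3.3). The fit had day as a factor and set as a block over all 28 libraries, and calls used a Benjamini-Hochberg adjusted p of 0.05. The procedure was run on simulated data with independent values, no set effect and no outlying library. It therefore does not speak for such effects in these data. Differences understate the change of low genes. Other steps used Python 3.11.15, numpy 2.4.6 and pandas 2.3.3. Alternatives were the pseudocount, filters, scaling, the set block, and leaving out libraries.

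Most genes were named by rule: the 10 highest scores, the 3 highest of each day of highest mean, the genes on either side of the limit, the 5 largest called differences each way in each comparison, members in the lists, and the SAUR, defensin and cytochrome P450 families. Further genes were picked out after their values were seen and are marked so. A few others are named as neighbours, as an exception or as other genes of a list.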

Additional observations from a re-analysis of the deposited data

How the results depend on the processing

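No called member changed direction under any alternative: over called members and settings, 863 results kept their call and 177 lost it. For day 20 against day 8, the members that rose numbered 44, with 69 when only the 8 libraries outside the rule were fitted and 20 to 40 with 1 library left out. Those that fell numbered 7, with 3 without the filter, 2 at pseudocount 0.1, 11 with 8 libraries, 19 after quantile normalization and 2 to 5 with 1 library left out. Over all genes, 7222 rose and 2331 fell, with 9019 and 3048 when only the 8 libraries outside the rule were fitted. The counts were 4327 and 4291 after quantile normalization, and 4755 to 6129 and 1606 to 1956 with 1 library left out.

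For day 24 against day 20, 29 members fell, with 51 with nuclear genes rescaled, 80 with 8 libraries, 70 after quantile normalization, 67 without day 4 and 13 to 28 with 1 library left out. Over all genes 1487 rose, with 3854 with 8 libraries, 982 at pseudocount 0.1, 3744 without day 4 and 552 to 800 with 1 library left out. Over all genes 611 fell, with 381 without the replicate block, 1085 with nuclear genes rescaled, 1568 with 8 libraries, 1762 after quantile normalization, 1462 without day 4 and 103 to 396 with 1 library left out. The cause was not tested; leaving out a library also leaves fewer samples. Members that rose were 0 in every alternative.

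Set numbers were checked for pairing: deviations of the sets correlated between days at -0.146 to 0.650 (median 0.226), over 0.1 in 66 of 91 pairs of days, so the numbers do not pair all days. All 28 libraries correlated best with a library of their own set. The 2 deviations of a day mirror each other, however, so both sets give the same result and this count is no separate evidence of pairing. Without the replicate block 39 members rose and 5 fell on day 20 against day 8, and 23 fell on day 24 against day 20. Of the 150 members, other forms of the rule kept 109 (set 1 alone), 114 (set 2 alone), 132 and 107 (pseudocounts 0.1 and 5), 146 (no level filter), 128 (at least 10 FPKM), 107 (quantile normalization), 128 (nuclear genes rescaled), 145 (highest model) and 103 (day 4 left out). Unknown depth limits what can be said of the lowest genes.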
